A study of Mus musculus with 12 samples.

Results

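The genes described here are 10 co-inhibitory ligands and checkpoint receptors, Cd274, Pdcd1lg2, Lag3, Havcr2, Lgals9, Btla, Cd200, Cd200r1, Tnfrsf14 and Cd276, out of 24232 named genes with a probe on the array. They were chosen by name, with earlier results of these data known. Every probe that carries a transcript of 1 of them was read, which gave 15 probes. Bone marrow of female mice was cultured with GM-CSF and IL-4, loosely adherent cells were taken as DCs, and all groups were then matured with the bacterial product LPS at 1 µg/ml for 24 hours, so no unstimulated DCs were measured. Young DCs came from mice of 2 months, Young-Abx DCs from mice of the same age given a cocktail of antibiotics, Old DCs from mice of 24 months, and Old-LP DCs from mice of 24 months fed the bacterium Lactobacillus plantarum. Each group had 3 one-colour arrays, labelled A, B and C, and each stood for a pool of 3 mice according to the figure legends of the study. No sort for DCs before the RNA was taken is given in the sources used here. The p-values therefore measure the spread between arrays of cultures that may hold more than 1 cell type. That spread includes differences between slides, for which the main fit held no term. The supplement of the study describes the data of a group as separate sets, 1 pool of mice for each.

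Co-inhibitory ligands on DCs lower the activity of T cells that recognise the antigen a DC presents, and DCs also carry receptors that restrain the DC itself. PD-L1 (Cd274) and PD-L2 (Pdcd1lg2) both bind the receptor PD-1 on T cells. LAG-3 binds MHC class II, TIM-3 (Havcr2) binds galectin-9 (Lgals9), BTLA binds HVEM (Tnfrsf14), and CD200 binds the receptor CD200R1 on myeloid cells. Many of these molecules are not particular to DCs: LAG-3 is made by activated T cells, NK cells and plasmacytoid DCs, and CD200 by T cells and B cells as well as by DCs.

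Cd274 and Pdcd1lg2 are neighbours on mouse chromosome 19 and are shown first because they encode both ligands of PD-1 and only Pdcd1lg2 passed the test below. In RefSeq on GRCm38.p6 both lie on the plus strand, with starts 43481 bases apart. The 250 bases before each start are given, with chr19:29367188-29367437 for Cd274 and chr19:29410669-29410918 for Pdcd1lg2. Capitals mark a match to the IRF core in Cd274 and to the κB motif bound by NF-κB in Pdcd1lg2.
Cd274: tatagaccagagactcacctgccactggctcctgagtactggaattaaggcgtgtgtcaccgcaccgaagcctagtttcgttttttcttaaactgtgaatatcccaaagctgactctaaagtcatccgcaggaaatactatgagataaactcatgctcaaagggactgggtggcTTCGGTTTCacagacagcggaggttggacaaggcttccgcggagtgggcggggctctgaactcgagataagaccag
Pdcd1lg2: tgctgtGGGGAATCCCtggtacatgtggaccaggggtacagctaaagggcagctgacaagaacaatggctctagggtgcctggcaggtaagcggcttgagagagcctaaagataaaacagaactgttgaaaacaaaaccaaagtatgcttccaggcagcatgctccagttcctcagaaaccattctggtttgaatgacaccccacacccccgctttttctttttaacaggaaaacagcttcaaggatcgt
Windows of this length were found for 8 of the 10 genes, and those of Lag3 and Cd200r1 were not analysed here. On both strands 3 motifs were searched, the STAT site TTCNNNGAA, the IRF core GAAANNGAA and the κB motif. Cd274 held 1 IRF core, on the minus strand, at 76 to 68 bases before the start. Pdcd1lg2 held 1 κB match, GGGGAATCCC, which fits the motif on both strands and lies 244 to 235 bases before the start. Neither window held a match of the kind found in the other. A κB match was present in 3.9% of 32851 promoter windows, a STAT site in 7.02% and an IRF core in 7.13%. Lgals9, Btla and Tnfrsf14 each held 1 IRF core as well, and the windows of Havcr2, Cd200 and Cd276 held no match. A match is a description of letters and was not tested as a binding site.

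Signal depth differed between the arrays. On the A and B arrays 61.2% to 66.4% of spots were well above background, against 37.3% to 46.0% on the C arrays, and Old C was the dimmest. All A and B arrays shared slide 1, Young C and Young-Abx C shared slide 2, and Old C and Old-LP C shared slide 3. Values are quantile-normalized log2 intensities, each scale belongs to its own probe, and the brightest probe of a gene stands for it unless another is named. In limma, a gene passed the test when its p, adjusted by Benjamini-Hochberg over 56605 probes, was 0.05 or less and its log2 difference was 0.5 or more in size. Of the 10 DC markers, 9 or 10 were well above background on every array, but so were all 7 macrophage markers and 6 or 7 of 7 T cell markers.

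**Figure D1:**
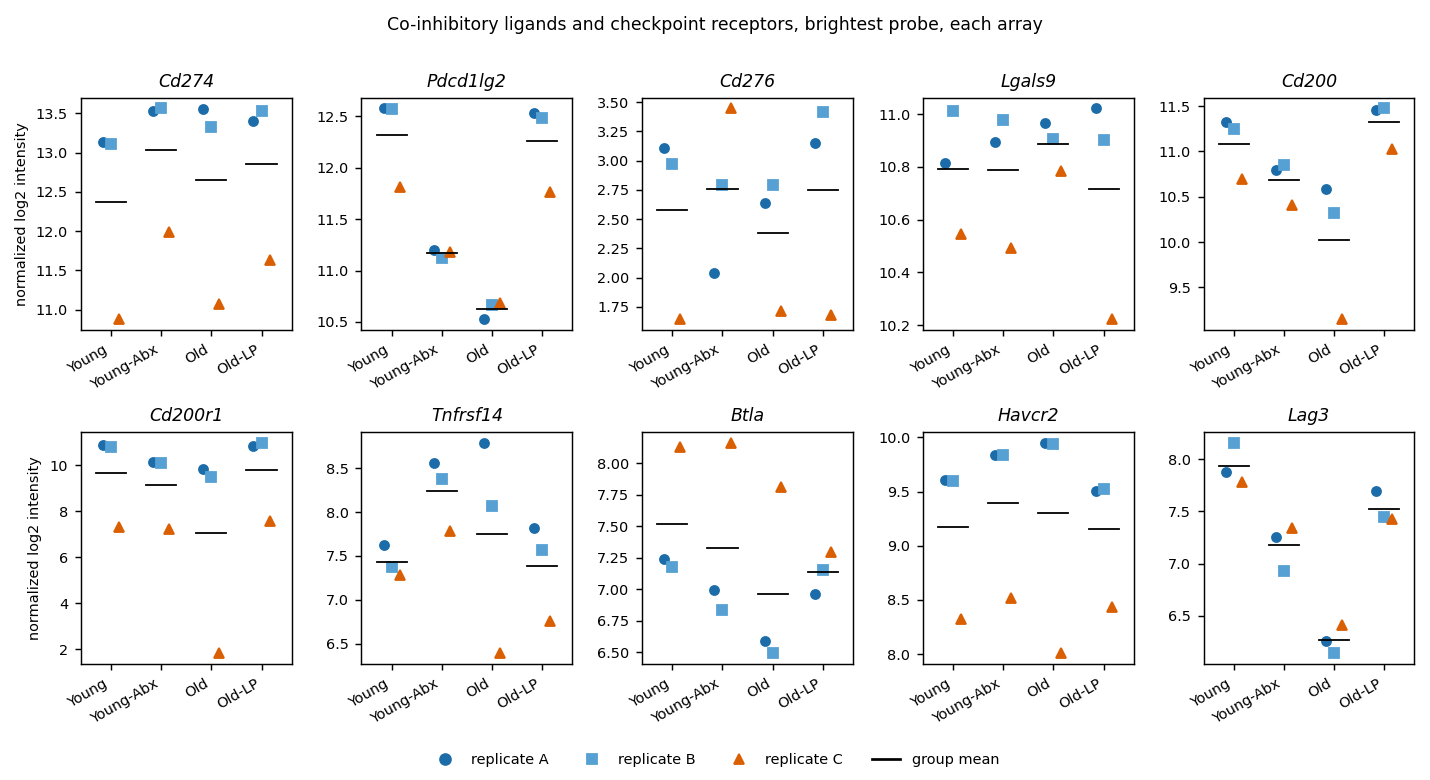
Normalized log2 intensity (y axis, a scale of its own in each panel) at the brightest probe of each of the 10 genes on the 12 arrays (x axis, the 4 groups); symbols give the replicate letter and black lines the group mean. Pdcd1lg2 and Lag3 are lowest on the 3 Old arrays, Cd274 differs more between C and the other arrays than between groups, and Cd276 stays between 1.65 and 3.45.

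Pdcd1lg2, the PD-L2 ligand, was lower in Old than in Young DCs and higher in Old-LP than in Old DCs. Its log2 intensity was 12.58, 12.57 and 11.81 on the Young arrays A, B and C. The Young-Abx arrays gave 11.20, 11.12 and 11.18, the Old arrays 10.53, 10.67 and 10.68, and the Old-LP arrays 12.53, 12.49 and 11.77. Every Old array lay below every array of the other groups, and Young and Old-LP overlapped. Group means were 12.32 ± 0.44 in Young, 12.26 ± 0.43 in Old-LP, 11.17 ± 0.04 in Young-Abx and 10.63 ± 0.09 in Old DCs (SD, n = 3). The arrays read whole cultures, in which fewer cells of a type and less RNA per cell cannot be told apart.

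The fall in Old against Young DCs was 1.69 on the log2 scale, or 3.23-fold (SE 0.28, 95% interval -2.32 to -1.06, limma adjusted p = 0.0272). Old-LP DCs were 1.64 above Old DCs, or 3.11-fold (interval 1.01 to 2.27, adjusted p = 0.0495). In Young-Abx DCs the value was 1.15 lower than in Young DCs with no overlap between the arrays (log2 difference -1.15, interval -1.78 to -0.52), but the adjusted p of 0.256 did not pass. Old and Young-Abx DCs differed by -0.54 (interval -1.17 to 0.09, adjusted p = 1.00), so the order of these lowest groups was not separated by the test. Old-LP and Young DCs differed by -0.06 (interval -0.69 to 0.57, adjusted p = 1.00).

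Within slide 1, Old minus Young was -1.97 and Old-LP minus Old was 1.91. Within slide 3, Old-LP minus Old on the C arrays was 1.09, and within slide 2, Young-Abx minus Young was -0.64, against -1.41 on slide 1. The Young to Old comparison of the C arrays, -1.13, runs across slides. With slide as a block, Young-Abx against Young passed as well (adjusted p = 0.0411). The call of Old against Young was lost without Young A (adjusted p = 0.158), Young B (0.146), Young-Abx A (0.0640), Young-Abx B (0.0644), Old A (0.126), Old B (0.110) or Old-LP B (0.0529), with a log2 difference of -1.71 to -1.56 in each of these fits. That of Old-LP against Old was kept only without Young C or Old-LP C, with adjusted p up to 0.244 otherwise.

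Cd274, the PD-L1 ligand that shares PD-1 with PD-L2, was not separated between groups. The log2 intensity was 13.14, 13.11 and 10.88 in Young, 13.54, 13.56 and 11.99 in Young-Abx, 13.56, 13.32 and 11.07 in Old and 13.40, 13.53 and 11.63 in Old-LP DCs (arrays A, B and C). All 4 C arrays were lower than every A and B array, so the spread within groups, 0.90 to 1.38 (SD), exceeded the differences between them. Old minus Young was 0.28 (interval -1.66 to 2.21), Young-Abx minus Young 0.66 (interval -1.28 to 2.59) and Old-LP minus Old 0.20 (interval -1.73 to 2.14), each with an adjusted p of 1.00. On slide 1 alone these differences were 0.32, 0.43 and 0.02. Falls and rises of more than 1 log2 unit lie within the intervals above, which come from a fit without a term for letter or slide. With the letter as a term, the replicate block, the SE of each difference was 0.20 instead of 0.87. None of the 3 differences passed in it (limma adjusted p = 0.627, 0.270 and 0.696). Whether Cd274 and Pdcd1lg2 differ in response was not tested.

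Cd276, the B7 family ligand B7-H3, was well above background on 1 of 12 arrays, Old-LP B, at 3.42. The other 11 values ran from 1.65 to 3.45, and no fold is given. Lgals9, which encodes galectin-9, lay between 10.22 and 11.02 on all 12 arrays. Its groups overlapped, and the interval of Old minus Young was -0.50 to 0.69.

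Cd200, the ligand of CD200R1, was also lowest in Old and next lowest in Young-Abx DCs, without passing the test. The Young arrays gave 11.32, 11.25 and 10.69, Young-Abx 10.79, 10.85 and 10.41, Old 10.59, 10.32 and 9.15, and Old-LP 11.46, 11.47 and 11.03. All 3 Old arrays lay below all Young and all Old-LP arrays, and Old and Young-Abx overlapped. Old minus Young was -1.07 (SE 0.37, adjusted p = 0.513) and Old-LP minus Old was 1.30 (SE 0.37, adjusted p = 0.350). With the replicate block, where the letter of each array is a term of the fit, both passed (adjusted p = 0.0489 and 0.0277), and with slide as a block the latter did (adjusted p = 0.0104). Without Old C the differences were -0.63 and 0.86.

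Tnfrsf14, which encodes HVEM, a receptor that is also the ligand of BTLA, was 7.63, 7.38 and 7.28 in Young and 8.56, 8.38 and 7.78 in Young-Abx DCs. Old DCs gave 8.79, 8.07 and 6.39, the last not well above background, and Old-LP DCs 7.82, 7.57 and 6.76. Young-Abx lay above Young on every array, by 0.81 (interval -0.40 to 2.02, adjusted p = 1.00), and the direction of Old minus Young turned between slide 1 (0.93) and the C arrays (-0.89).

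Lag3 was the receptor that passed the test, and it was lower in Old than in Young DCs and higher in Old-LP than in Old DCs. The brighter probe read 7.87, 8.16 and 7.78 in Young, 7.26, 6.93 and 7.34 in Young-Abx, 6.26, 6.14 and 6.41 in Old, and 7.70, 7.45 and 7.43 in Old-LP DCs. Old C was not well above background, and the other 11 arrays were. The groups stood in the order Young, Old-LP, Young-Abx and Old with no overlap between any pair of them. Old minus Young was -1.66, a 3.17-fold fall (SE 0.21, limma adjusted p = 0.00789), and Old-LP minus Old was 1.25, or 2.39-fold (adjusted p = 0.0471). The steps from Young to Old-LP, -0.41 (interval -0.89 to 0.07), from Young-Abx to Old-LP, 0.35 (interval -0.13 to 0.83), and from Young-Abx to Old, -0.90 (interval -1.38 to -0.43), all had adjusted p of 1.00, and Young-Abx minus Young was -0.76 (adjusted p = 0.428).

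Within slide 1, Old minus Young was -1.81 and Old-LP minus Old was 1.37, and the C arrays of slide 3 gave 1.02 for the latter. The Old to Young call was lost without Young B (-1.55, adjusted p = 0.0507). After normexp background correction the differences were -0.96 and 0.67, the latter with an adjusted p of 0.145. The Old-LP to Old call was kept without Old C (1.32, adjusted p = 0.0359) and lost without any 1 of the other 11 arrays, with adjusted p of 0.0515 to 0.233.

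Marker genes of T cells and NK cells, like Lag3, had their lowest sums in Old DCs. The summed linear intensity of 7 T cell markers was 17104 to 27473 in Young, 14474 to 27629 in Young-Abx, 5662 to 10637 in Old and 15922 to 22187 in Old-LP DCs. All 7 were lower in Old than in Young DCs, with a median log2 difference of -1.10, and all 7 were higher in Old-LP than in Old DCs, with a median of 0.84. Cd4, listed with the binding partners and not among these 7, did not share this direction. Its means were 9.29 in Young, 9.10 in Young-Abx, 9.33 in Old and 8.76 in Old-LP DCs, and it was named after its values were seen. None of the 7 passed the test in either comparison, while 4 and 5 were without overlap between the groups, against 9.65% and 9.38% of probes. In Young-Abx against Young DCs, where Lag3 and Pdcd1lg2 were both lower, the median was -0.11, against a median of -0.01 over all genes. The medians of the neutrophil and B cell markers in that comparison were -0.59 and -0.45, with none that passed as lower. Of the 7 T cell markers, 6 were well above background on Old C and all 7 on each other array. The sum of 6 NK cell markers was 6172 to 6617 in Young, 5778 to 5987 in Young-Abx, 1588 to 4286 in Old and 5709 to 6412 in Old-LP DCs. Of these 6 NK cell markers, 5 were lower and 1 higher in Old than in Young DCs. In Old-LP against Old DCs 5 were higher and 1 lower. The exception in both was Ncr1, with means of 3.34 in Young, 4.34 in Old and 2.51 in Old-LP DCs. It was well above background on 0, 2 and 1 of 3 arrays of these groups. The sum of 6 plasmacytoid DC markers overlapped between Old and Young DCs, at 23590 to 29095 and 24459 to 28423, and between Old and Old-LP DCs, at 24123 to 26796 in the latter. Of these 6, 4 were higher and 2 lower in Old than in Young DCs. In Old-LP against Old DCs 2 were higher and 4 lower, and in Young-Abx against Young DCs 5 were higher and 1 lower. None of the 6 passed in these comparisons. Spib, named after its values were seen, had means of 10.71 in Young, 9.87 in Young-Abx, 9.59 in Old and 10.80 in Old-LP DCs. Its Old arrays lay below all Young and all Old-LP arrays. The part of these cells in the values of Lag3, Pdcd1lg2 and Cd200 was not tested.

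None of the 10 DC markers passed in any comparison. Cd86, a B7 ligand that costimulates T cells, read 12.16, 12.07 and 12.05 in Young, 11.70, 11.65 and 11.52 in Young-Abx, 11.46, 11.56 and 11.49 in Old, and 11.90, 11.92 and 11.88 in Old-LP DCs. Its Old arrays lay below all Young and all Old-LP arrays, at -0.59 (adjusted p = 0.341) in Old against Young and 0.40 (adjusted p = 0.843) in Old-LP against Old DCs. Those of Cd83, a marker of mature DCs, did as well, at -0.54 (adjusted p = 0.80) and 0.63 (adjusted p = 0.681). Both were named after their values were seen. With the replicate block, 2 DC markers passed in Old against Young DCs in opposite directions, Cd86 at -0.59 (adjusted p = 0.0493) and H2-Ab1, an MHC class II chain, at 0.79 (adjusted p = 0.0417). H2-Aa, another MHC class II chain, did not pass and had its lowest mean in Old DCs, with Old and Young arrays overlapping. Its means were 14.86 in Young, 13.93 in Young-Abx, 13.81 in Old and 15.12 in Old-LP DCs. It was also named after its values were seen.

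**Figure D2:**
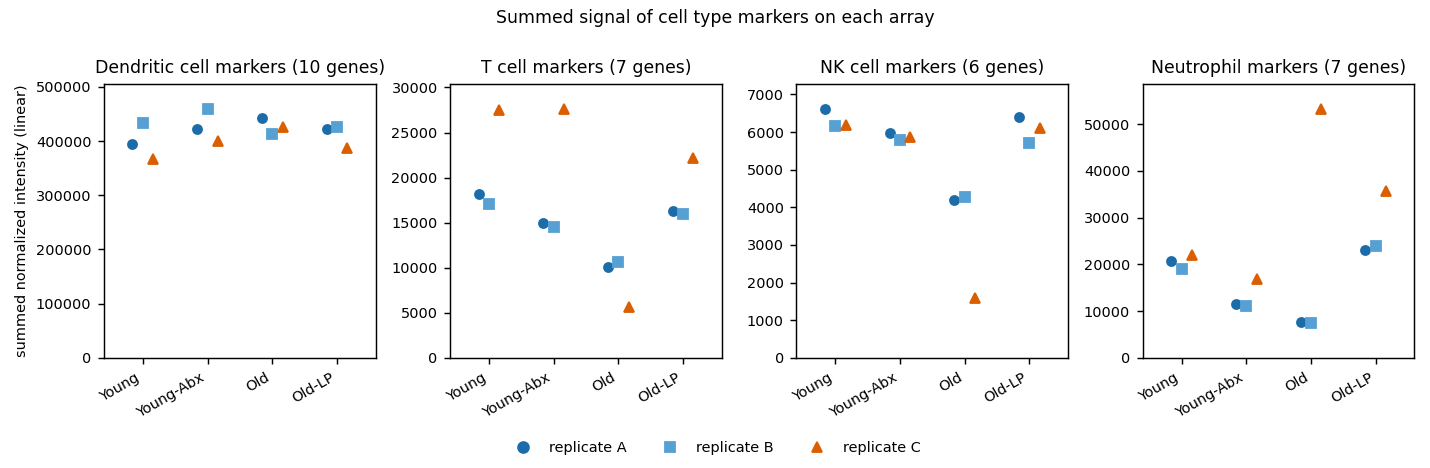
Summed normalized intensity on a linear scale (y axis, from 0) of the markers of DCs, T cells, NK cells and neutrophils on each array (x axis, the 4 groups); symbols give the replicate letter. The T cell sum is 5662 to 10637 on the Old arrays and 14474 or more on all others, the DC sums of the groups overlap, and Old C alone reaches 53286 in the neutrophil panel.

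Old C also stood apart in other lineages. Its neutrophil sum was 53286 against 7479 to 7674 on the other Old arrays, and its sum of 6 B cell markers was 17189 against 3468 to 3742. On slide 1 the neutrophil sum was 11153 to 11570 in Young-Abx, 19067 to 20620 in Young and 23174 to 23971 in Old-LP DCs, and the B cell sum was 4031 to 4174, 6242 to 6374 and 6209 to 6876. On the A and B arrays both sums, and that of 6 mast cell and basophil markers, were lowest in Old and next lowest in Young-Abx DCs, as Pdcd1lg2 was, and their part in its values was not tested. The neutrophil gene Camp, an antimicrobial peptide of granules, was the listed marker that passed, at 2.71 higher in Old (adjusted p = 0.0208) and 2.47 higher in Young-Abx (adjusted p = 0.0498) than in Young DCs, while 5 of the 7 neutrophil markers were lower in both comparisons. Without Old C, Pdcd1lg2 was 1.72 lower (log2 difference -1.72, adjusted p = 0.0426) and Lag3 1.73 lower (log2 difference -1.73, adjusted p = 0.00800) in Old than in Young DCs.

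Havcr2, the TIM-3 receptor, differed more between the C arrays and the others than between groups. Values were 9.61, 9.59 and 8.33 in Young, 9.84, 9.83 and 8.52 in Young-Abx, 9.95, 9.94 and 8.01 in Old, and 9.50, 9.52 and 8.44 in Old-LP DCs. On slide 1, Old minus Young was 0.35 and Old-LP minus Old -0.43, and on the C arrays the same differences were -0.32 and 0.43. The pooled difference of Old minus Young was 0.12 (interval -1.27 to 1.52, adjusted p = 1.00). With the replicate block its SE was 0.19 instead of 0.63, and it did not pass (limma adjusted p = 0.835). Btla, which encodes the inhibitory receptor of HVEM, was 7.24, 7.17 and 8.13 in Young and 6.59, 6.49 and 7.81 in Old DCs, a difference of -0.55 (interval -1.57 to 0.47, adjusted p = 1.00). Young-Abx DCs gave 6.99, 6.84 and 8.16 and Old-LP DCs 6.96, 7.15 and 7.30. On slide 1, Btla gave -0.67 for Old minus Young and 0.52 for Old-LP minus Old. On the C arrays the same differences were -0.32 and -0.51. Both Btla differences passed in a fit of slide 1 alone, with 2 arrays in a group.

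Cd200r1, the receptor of CD200, read 10.88, 10.82 and 7.31 in Young, 10.15, 10.11 and 7.21 in Young-Abx, 9.83, 9.51 and 1.83 in Old, and 10.83, 10.99 and 7.57 in Old-LP DCs. Old C was not well above background, and its low value gave Old minus Young an interval of -7.15 to 1.93 around -2.61. On slide 1, Old minus Young was -1.17, Young-Abx minus Young -0.72 and Old-LP minus Old 1.24. All A and B arrays of Old and Young-Abx DCs lay below those of Young and Old-LP DCs, and in a fit of slide 1 alone these 3 differences passed (adjusted p = 0.00491, 0.0372 and 0.00458), with 2 arrays in a group.

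**Figure D3:**
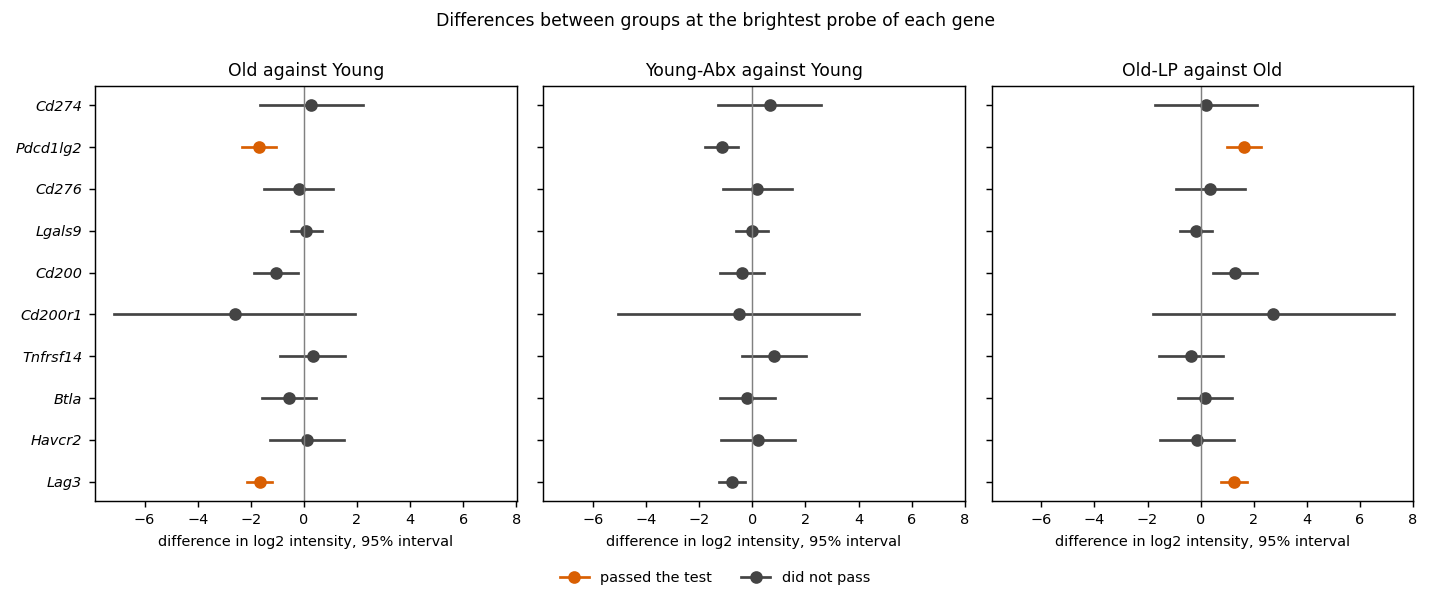
Differences in normalized log2 intensity (x axis) at the brightest probe of each gene (y axis), with 95% intervals from limma, for Old against Young, Young-Abx against Young and Old-LP against Old DCs; orange marks genes that passed the test. Pdcd1lg2 and Lag3 pass below 0 in the left panel and above 0 in the right panel, and the interval of Cd200r1 in Old against Young runs from -7.15 to 1.93.

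Counted together, 2 of the 10 genes passed in Old against Young DCs, Pdcd1lg2 and Lag3, both lower, where 0.62% of all probes passed and 0.171% passed as lower. The groups did not overlap for 3 genes, against 9.65% of probes. In Old-LP against Old DCs the same 2 genes passed as higher, where 0.348% of all probes passed and 0.12% as higher, and 3 genes did not overlap, against 9.38% of probes. These comparisons share the Old arrays. With the replicate block Cd200 joined them in both, making 3 genes in each, where 2.18% and 1.65% of probes passed. The 10 genes were chosen with earlier results of these data known, so these counts and shares are descriptions.

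None of the 10 passed in Young-Abx against Young DCs (0.344% of probes), with 2 at an unadjusted p (3.85% of probes) and 3 without overlap (9.86%). Old-LP against Young DCs gave 0 genes and 0% of probes, with none of the 10 at an unadjusted p (1.12%) and 1 without overlap (4.72%). Old against Young-Abx DCs gave 0 genes (0.00177% of probes), 1 at an unadjusted p (1.53%) and 2 without overlap (5.31%). Old-LP against Young-Abx DCs gave 0 genes (0.163%), 1 at an unadjusted p (3.3%) and 3 without overlap (9.51%). All counts are from limma.

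The 5 genes with 2 probes showed how far probes of a gene agree. The other Lag3 probe read 5.71, 6.18 and 6.24 in Young, 4.07, 4.70 and 5.46 in Young-Abx, 3.96, 4.70 and 4.21 in Old, and 5.09, 5.21 and 4.88 in Old-LP DCs. At this probe Old C and Old-LP C were not well above background. It had the sign of the brighter probe in 6 of 6 comparisons, with an Old minus Young difference of -1.75 (adjusted p = 0.0766, and 0.0230 with the replicate block) beside -1.66. For Old-LP minus Old it gave 0.77 (adjusted p = 0.888) beside 1.25, so the call rests on the brighter probe.

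The Cd200 probes, which carry different transcripts of the gene, gave the closest differences. Their signs matched in 6 of 6 comparisons and their log2 differences were at most 0.17 apart. The other probe read 7.77, 7.17 and 8.36 in Young and 6.97, 6.87 and 6.76 in Old DCs, a difference of -0.90 (adjusted p = 0.436), and 8.05, 8.16 and 7.79 in Old-LP DCs, 1.13 above Old (adjusted p = 0.257). Both probes kept Old apart from Young and from Old-LP, with Old C not well above background at the other probe.

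The Cd200r1 probes matched in sign in 6 of 6 comparisons but were up to 1.91 apart, since Old C read 1.83 at the brighter probe and 5.41 at the other. Neither reading was well above background. On slide 1 the other probe gave -0.31 for Old minus Young, beside -1.17. For Tnfrsf14 the signs matched in 5 of 6 comparisons with gaps of up to 0.82, and Young-Abx minus Young was 0.81 at one probe and 0.13 at the other. The other Btla probe was not well above background on any C array (1.74 to 1.85), and its signs matched those of the brighter probe in 4 of 6 comparisons.

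After the mean of each letter was subtracted, the 2 probes correlated over the 12 arrays with r = 0.93 for Cd200r1, 0.86 for Cd200, 0.85 for Lag3, 0.54 for Btla and 0.11 for Tnfrsf14. Without that step r was 0.94, 0.63, 0.79, -0.79 and -0.44, so that it turned sign for Btla and Tnfrsf14. These arrays share slides, so the values are descriptions, and that of Cd200r1 includes Old C, where neither probe was well above background.

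**Figure D4:**
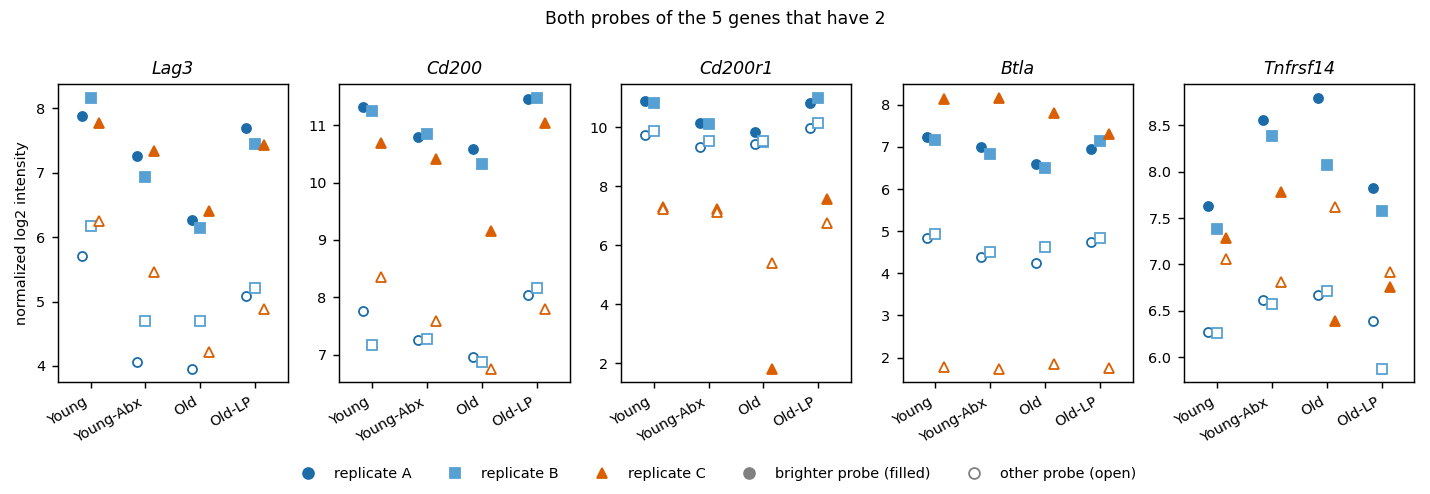
Normalized log2 intensity (y axis) of both probes of the 5 genes with 2 probes on each array (x axis, the 4 groups); filled symbols are the brighter probe, open symbols the other, and shapes give the replicate letter. Lag3 and Cd200 have their lowest group mean in Old DCs at both probes, the open Btla triangles sit at 1.74 to 1.85, and the Cd200r1 probes part on Old C.

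None of the genes in 3 lists around the 10 passed the test in any comparison. Of 14 binding partners, 8 were lower and 6 higher in Old than in Young DCs, with a median log2 difference of -0.03 beside 0.00 over all genes. Pdcd1, the PD-1 receptor itself, gave -0.02 (adjusted p = 1.00), and Cd80, a B7 ligand that also binds PD-L1, -0.18 (adjusted p = 1.00). Cd160 and Tnfsf14, partners of HVEM, gave -1.41 (adjusted p = 0.216) and -0.75 (adjusted p = 0.516) in Old against Young DCs and 1.05 (adjusted p = 0.585) and 0.92 (adjusted p = 0.351) in Old-LP against Old DCs. Both kept the groups apart in both comparisons, the only 2 of the 14 partners to do so, against 9.65% and 9.38% of probes. Cd160 was well above background on 2 of 3 arrays of each of these groups.

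Of 23 other inhibitory ligands and receptors, 15 were lower in Old than in Young DCs (median -0.12) and 15 higher in Old-LP than in Old DCs (median 0.14). Ctla4, Tigit and Cd96, receptors of T cells and NK cells, were named after their values were seen, and gave -2.45, -1.94 and -0.61 in Old against Young DCs (adjusted p = 0.174, 0.492 and 0.447) and 2.81, 2.20 and 0.55 in Old-LP against Old DCs (adjusted p = 0.126, 0.406 and 0.655). Ctla4 was well above background on 2 of 3 Young, 1 of 3 Old and 3 of 3 Old-LP arrays, and Tigit on 2 of 3 arrays of each. These 3 and Cd48, at -0.26 and 0.12 (adjusted p = 1.00 in both), kept the groups apart in both comparisons. Of the 23 genes, 4 were without overlap in Old against Young DCs, all lower, against 9.65% of probes. In Old-LP against Old DCs 4 higher and 1 lower were without overlap, against 9.38% of probes. With the replicate block 1 gene of this list passed in each comparison, Clec12a, an inhibitory lectin of myeloid cells, at -1.38 (adjusted p = 0.0146) and 1.25 (adjusted p = 0.0272). All 17 genes of signalling below these receptors and of PD-L1 control were well above background on every array, and 12 were lower and 5 higher in Old than in Young DCs (median -0.08).

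The genes whose values were most like those of a member over the 12 arrays, after the mean of each letter was subtracted, were sought among 14235 or 14236 probes. For Pdcd1lg2 these were Bdh1 (r = 0.992), Gbp5 (0.992), an interferon-induced GTPase, and Slc4a8 (0.991). For Lag3 they were Ncapg (0.987), a condensin subunit, Fhit (0.979) and Gpr171 (0.967). For Cd200 they were Mtmr4 (0.990), Il2rb (0.989), the β chain of the IL-2 receptor, and Smc4 (0.984), and for Cd274 Cul5 (0.972), Nadk2 (0.964) and Prpf4b (0.957). With so many probes and 12 arrays that share slides, these r are descriptions.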

How the data were processed

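RNA of DCs from 4 groups was measured on 12 one-colour Agilent arrays. The authors deposited the processed intensity of each spot, background-subtracted by Feature Extraction (version 12.1.1.1 in the file header, 10.5 in the submitters' processing notes), and a table of log2 values for 46302 probes, quantile-normalized without background subtraction. From the deposited intensity, 1068 outlier readings of 59305 spots were set to missing, log2 values were quantile-normalized and repeated spots averaged to 56605 probes, of which 35405 were named through accessions (24232 symbols). R 4.3.3, limma 3.58.1 (lmFit and eBayes, 1 mean per group, shared spread) and data.table (1.17.8) gave 6 contrasts. P-values are two-sided and adjusted over all probes. The steps were tested on simulated data.

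The members and gene lists were chosen with earlier results of these data known. Members were named at every probe, partners by list, other listed genes where called, and the 3 most similar genes by r. Exceptions are stated. Promoters are from RefSeq.

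Deviations from group means correlated at 0.414 to 0.711 between arrays of the same letter, 0.449 to 0.570 between A and B, and -0.659 to -0.466 between C and A or B. The letters of the labels were therefore treated as pairing in an alternative fit, the replicate block, although they set apart C alone. The main fit held no term for letter or slide. Alternatives were a 75th percentile shift, normexp (offset 50, on the median signal, since the planned mean signal was not used here), the authors' log2 table, a dim-probe filter (25582 probes), the mean over probes, letter or slide as a block, the compared groups alone, an intensity trend, outliers kept, slide 1 alone, unadjusted p, and each array left out. Precision is limited by 3 arrays a group.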

Additional observations from a re-analysis of the deposited data

How the results depend on the processing

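In Old against Young DCs, 2 of the 10 genes passed. A fit of the compared groups alone gave 0, slide 1 alone gave 5, and leaving out each array in turn gave 0 to 2. In Old-LP against Old DCs, the 2 became 0 with a 75th percentile shift and with the compared groups alone, 1 with normexp, with the log2 table of the authors, with the mean over probes and with an intensity trend, 5 on slide 1 alone, and 0 to 1 when each array was left out. In Young-Abx against Young DCs, 0 became 1 with slide as a block, 3 on slide 1 alone and 2 at an unadjusted p. In Old-LP against Young-Abx DCs, 0 became 3 on slide 1 alone and 1 at an unadjusted p, and in Old against Young-Abx DCs, 0 became 1 at an unadjusted p. Old-LP against Young DCs stayed at 0 under all alternatives run. The causes were not tested.

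With the replicate block, Cd200 passed in Old against Young (-1.07, adjusted p = 0.0489) and in Old-LP against Old DCs (1.30, adjusted p = 0.0277), and the pairing changed no other call at the brightest probes. Across 23 alternatives Pdcd1lg2 kept its direction in 23, at -1.97 to -1.56 in Old against Young and up to 1.91 in Old-LP against Old DCs, and Lag3 in 23, at -1.81 to -0.96 and 0.67 to 1.37. No called value changed sign. On slide 1 alone each group has 2 arrays. The C arrays set the width of the intervals of Cd274, Havcr2 and Cd200r1, and Cd276 and the other Btla probe were limited by signal over background.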
